A study of Mus musculus with 4 samples.

Results

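The subject here is the set of very long transcripts bound by DDX3X, those whose implied length is 10000 nt or more. DDX3X-bound RNA was measured in wild-type mouse embryonic fibroblasts (MEF), cells cultured from the connective tissue of mouse embryos, by CLIP-seq. In this assay ultraviolet light links RNA to the protein it touches in the cell, and the RNA that comes down with the protein on an antibody is sequenced. The resting group received the vehicle DMSO, and the stressed group received thapsigargin at 400 nM for 1 h. Each group had 2 libraries, numbered replicate 1 and 2 in the labels. All cells were detached with trypsin, kept on ice during irradiation and precipitated with the same rabbit polyclonal antibody against DDX3X. The labels do not say whether the replicates came from separate cultures, so p-values measure only the spread between these libraries, which may be technical. Libraries of input RNA, of a mock precipitation or of total RNA were not analysed here.

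Lengths were implied by the ratio of a transcript's deposited count to its deposited TPM, scaled so that uc012ath.2, the most abundant transcript of the table, has 5818 nt. Of 59988 rows, 514 had a length of at least 10000 nt, and 370 of these had a summed count of at least 40 over the 4 libraries. Neighbouring rows with identical counts were counted once, which removed 34 rows and left 336 members. The 3 members closest to the length limit had 10000, 10012 and 10025 nt, and the nearest rows outside it had 9984, 9977 and 9971 nt. At the limit on counts, the lowest members had summed counts of 40, 45 and 47, and the nearest rows outside it had 39 each.

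DDX3X belongs to the DEAD-box helicases. It unwinds structured RNA and assists the start of translation on messenger RNAs whose leaders are hard to scan. Thapsigargin blocks the pump that fills the endoplasmic reticulum (ER) with calcium, and the ER stress that follows activates the kinase PERK, which phosphorylates eIF2α and lowers translation initiation. Messenger RNAs that leave ribosomes under such stress can collect in stress granules, of which DDX3X is a component and in which long messenger RNAs are known to be over-represented. Mouse transcripts of this size class include messenger RNAs of giant cytoskeletal and matrix proteins, messenger RNAs with long 3′ ends, and some long noncoding RNAs. The tables pair the identifiers with no gene names, and 0 rows of the RefSeq gene table carried such an identifier, so members are given by identifier, length and count, with no sequence, position or gene. For the same reason the fibroblast label was not checked against marker genes.

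The members were mostly just above the length limit. Their median length was 11492.5 nt (quartiles 10717.8 and 13389.5), 204 lay below 12000 nt, 83 from 12000 to under 15000 nt, 40 from 15000 to under 20000 nt and 9 at 20000 nt or more, up to 101674 nt. The median count of a member was 475.5 and 89.5 in the DMSO replicates 1 and 2, and 451.5 and 154 in the thapsigargin replicates. All 336 passed edgeR's filter on low counts, each had at least 1 count in every library, and 15 had fewer than 10 counts in DMSO replicate 2. Library totals ran from 2405801 to 10463359 counts, with the replicate 2 library the shallower in both groups. Depth therefore limits single members in the replicate 2 libraries more than in the replicate 1 libraries.

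Per unit of length the median member carried less DDX3X signal than the median tested transcript. The filter for testing is on counts, so a shorter transcript needs a higher TPM to pass it, which by itself raises the medians of shorter classes. In DMSO replicate 1 the median was 17.1 TPM for tested transcripts of 1000 to under 2000 nt. How much of the difference comes from the filter was not tested. On the authors' TPM scale, which divides counts by length, the median level of the members was 8.86 and 7.28 in the DMSO replicates and 6.82 and 6.42 in the thapsigargin replicates. The median over all tested transcripts was 12.7, 11.9, 11.3 and 10.6 in the same order. Transcripts of 5000 to under 10000 nt had medians of 9.28, 8.56, 7.54 and 7.09. Members differed widely in level, from 0.113 to 316 TPM in DMSO replicate 1.

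Together the members took up 2.79% of the counts of DMSO replicate 1 (95% interval by Wilson's method 2.78 to 2.80) and 2.43% of those of DMSO replicate 2 (2.42 to 2.45). They held 2.60% (2.59 to 2.61) and 2.33% (2.32 to 2.35) in the thapsigargin replicates. The groups overlapped, with means of 2.61% ± 0.250 (SD, n = 2) for DMSO and 2.46% ± 0.189 (SD, n = 2) for thapsigargin, and without DMSO replicate 1 the difference turned from -0.147 to 0.0299 percentage points. These intervals cover counting error only and treat each count as independent, although reads copied from 1 molecule by amplification are not independent molecules. A single transcript, uc012ath.2, took 12.5% and 18.0% of the DMSO counts and 9.08% and 8.69% of the thapsigargin counts, and its share enters every other share. Next, uc012ath.2 was left out of the totals, a step added after the data were seen. The members then held 3.19% and 2.97% of the DMSO counts and 2.86% and 2.55% of the thapsigargin counts. With this step the groups no longer overlapped (3.08% ± 0.154 and 2.71% ± 0.215, SD, n = 2 each). Transcripts of 5000 to under 10000 nt, counted the same way without uc012ath.2, held 19.3% and 18.9% with DMSO and 17.8% and 17.5% with thapsigargin. As a share of the deposited TPM, with no transcript left out, the members held 0.521% and 0.456% with DMSO. With thapsigargin they held 0.412% and 0.356% of TPM, so on that scale the groups did not overlap.

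**Figure D1:**
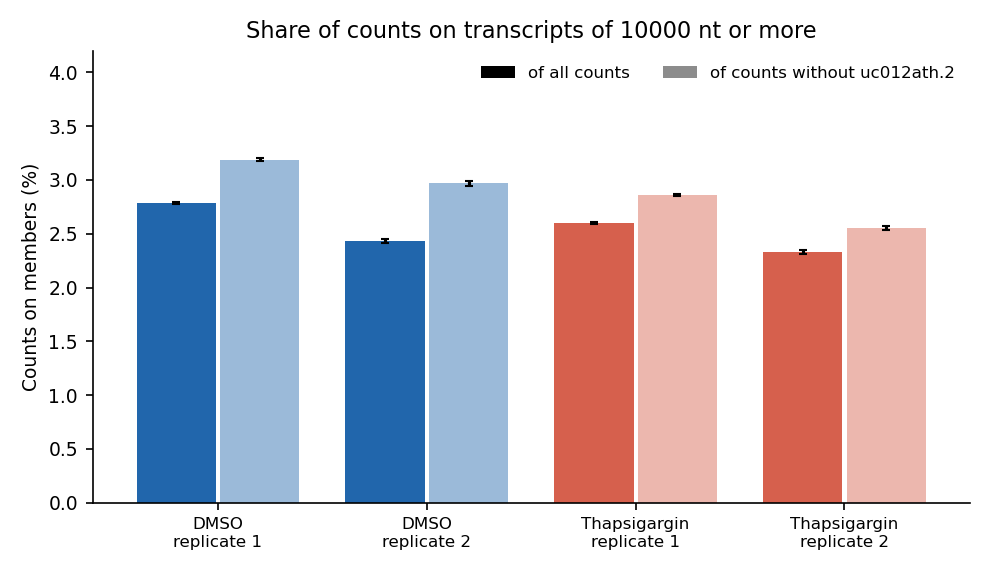
Percent of counts on the 336 transcripts of 10000 nt or more in each of the 4 libraries (bars from 0, blue for DMSO and red for thapsigargin, error bars Wilson 95% intervals for counting error). Solid bars, of all counts, overlap between groups; pale bars, of counts without uc012ath.2, run from 2.97% to 3.19% with DMSO and from 2.55% to 2.86% with thapsigargin.

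Single members were unevenly counted, and the order was alike in the 4 libraries. The most counted, uc008goj.2, held 8.68%, 7.81%, 9.63% and 9.14% of the members' counts in DMSO replicates 1 and 2 and thapsigargin replicates 1 and 2. The 10 most counted held 21.3%, 20.9%, 20.9% and 21.2% in the same order. Across members, Pearson's r of log2 CPM (counts scaled to library size after TMM) was 0.981 for the DMSO pair and 0.986 for the thapsigargin pair. Across groups it was 0.986 for replicate 1 and 0.969 for replicate 2. Transcripts are the points of these coefficients. They share libraries and, in part, reads, and are not replicates.

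To ask how binding differed between resting and acutely stressed cells, thapsigargin was compared with DMSO by edgeR's quasi-likelihood test, fitted to all 29059 tested transcripts. Most very long transcripts had less signal with thapsigargin, by a small amount. The median log2 fold change of the members was -0.18 (quartiles -0.36 and -0.03), against 0.00 (-0.29 and 0.30) over all tested transcripts. A fold change below 0 was found for 264 of 336 members (78.6%), where 49.8% of all tested transcripts had one. With Benjamini-Hochberg adjustment over all tested transcripts, 26 members (7.74%) fell at an adjusted p under 0.05, against 3.67% of all tested transcripts. In the other direction 3 members (0.893%) rose, against 3.74% of all. An unadjusted p under 0.05 was reached by 72 members on the lower side and 14 on the higher side, where all tested transcripts gave 11.0% and 10.4%. Both thapsigargin values lay below both DMSO values for 142 members (42.3%; 25.2% of all) and above them for 36 (10.7%; 26.1% of all). No test compared the members as a set with other transcripts. A lower count can come from fewer molecules of an RNA, fewer cells that hold it or less of it crosslinked to DDX3X, and these cannot be told apart here.

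The number of calls depended on single libraries. Without DMSO replicate 1, edgeR called 4 members, of which 3 (0.893%) were lower, against 2.18% of all tested transcripts. Without thapsigargin replicate 2 it called 10, of which 7 (2.08%) were lower, against 2.29% of all. Without thapsigargin replicate 1 it called 17, and 5.06% of members were lower against 1.55% of all, and without DMSO replicate 2 it called 21, with 5.65% lower against 2.23%. The excess of lower calls over the background was thus present in 2 of these 4 fits and not in the others, whereas the median of the members was below that of all transcripts by 0.13 to 0.25 in each of the 4.

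The shift was also read within each replicate number. The median log2 ratio of thapsigargin to DMSO over the members was -0.18 for replicate 1 and -0.19 for replicate 2, against 0.00 and 0.01 over all tested transcripts. Of the members, 187 were below 0 in both pairs (all tested, 32.4%) and 46 above 0 in both (all tested, 33.5%). Libraries of the same group also differed for these transcripts. The median ratio of replicate 2 to replicate 1 was -0.06 with DMSO and -0.10 with thapsigargin, against -0.01 and 0.00 over all tested transcripts. Over all members the treatment median was thus larger in size than both replicate medians. Among the 83 members of 12000 to under 15000 nt the replicate medians were -0.12 with DMSO and -0.15 with thapsigargin, and the treatment median was -0.16, so there the shift was close to the spread between replicates. Among the 40 members of 15000 to under 20000 nt they were -0.06 and -0.16, beside a treatment median of -0.18, so the thapsigargin replicates differed there by nearly as much. Among the 9 members of 20000 nt or more they were -0.06 and -0.21, beside a treatment median of -0.28. Whether depth had a part in the replicate difference was not tested. Across members, the ratios of the pairs, which share no library, correlated with r = 0.288 (rho = 0.342), and across all tested transcripts with r = 0.400 (rho = 0.421).

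**Figure D2:**
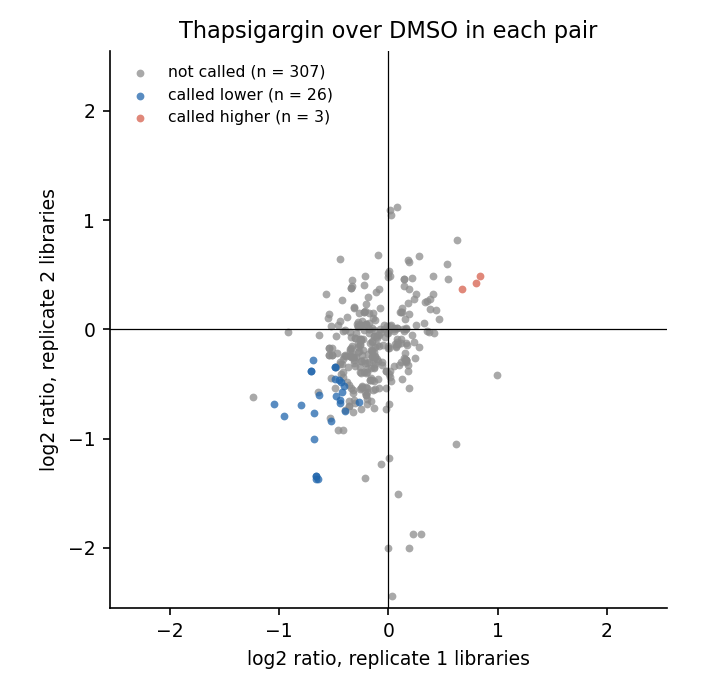
Log2 ratio of thapsigargin to DMSO for each of the 336 members in the replicate 1 libraries (horizontal axis) and the replicate 2 libraries (vertical axis), coloured by edgeR call. The lower left part, where 187 members are below 0 in both pairs, is the most crowded, and the 26 called lower all lie there.

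The shift deepened with length up to about 10000 nt and not clearly beyond. The median log2 fold change was 0.05 for transcripts of 1000 to under 2000 nt, 0.01 from there to under 5000 nt, -0.08 to under 7500 nt and -0.16 to under 10000 nt. Among the members it was -0.19 from 10000 to under 12000 nt, -0.16 to under 15000 nt and -0.18 to under 20000 nt. Just outside and just inside the length limit, the 148 tested transcripts of 9000 to under 10000 nt had a median of -0.18 and the 127 members under 11000 nt one of -0.22. Within the members, fold change did not follow length (rho = -0.0014 across 336 transcripts). Lower calls made up 5.41% of transcripts of 5000 to under 7500 nt, 6.62% of those of 7500 to under 10000 nt and 6.86% of members under 12000 nt. Higher calls made up 1.85%, 2.30% and 0.490% of the same classes. Along these classes the median mean count also rose (155, 209 and 259.5) and the median standard error fell (0.22, 0.19 and 0.18). Whether count had a part in the shares called was not tested. Of the 40 members of 15000 to under 20000 nt, 38 had a fold change below 0 (all tested, 49.8%) and 25 were below 0 in both pairs (all tested, 32.4%). They came from 31 runs of adjacent rows, and 2 were called lower, or 5.0% against 3.67% of all tested transcripts. The 9 members of 20000 nt or more lay in 8 runs and ranged from -0.69 to 0.69. Of these, 2 were called lower and 1 higher, where 3.67% and 3.74% of all tested transcripts were. The 2 lower calls, of 24271 and 23252 nt, lay in different runs but had similar counts. In DMSO replicates 1 and 2 and thapsigargin replicates 1 and 2 these were 3504, 736, 2769 and 878 against 3368, 721, 2636 and 818. They may not be separate observations.

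**Figure D3:**
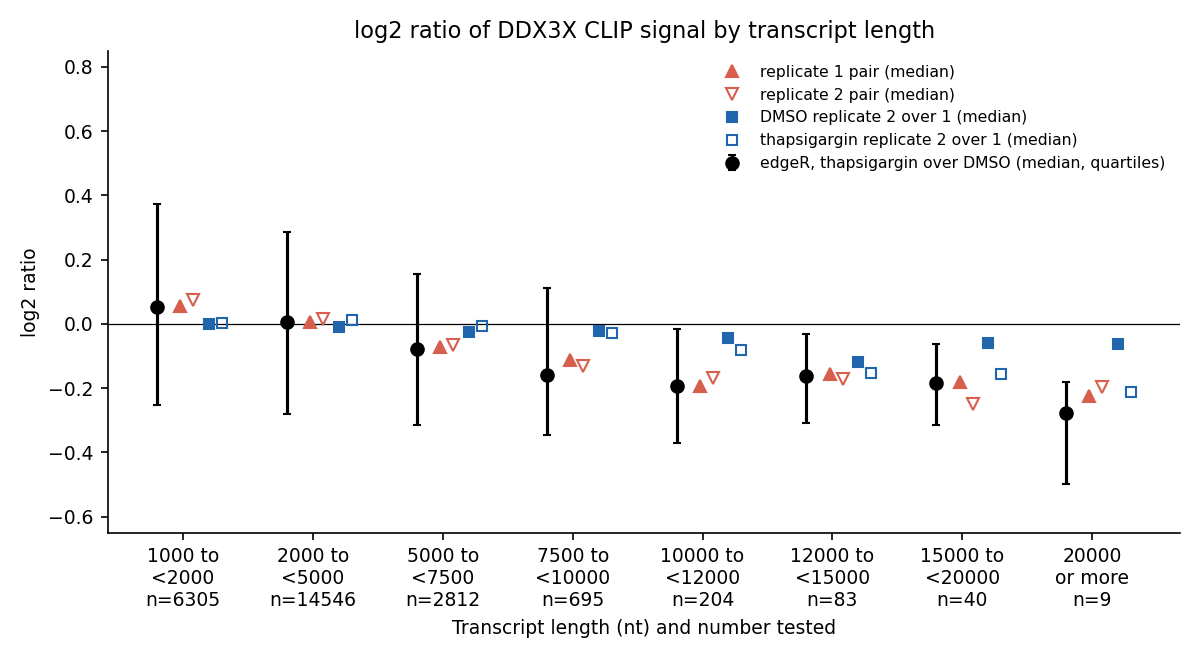
Log2 ratios by class of transcript length, with identical neighbouring rows counted once. Black points and bars give the median and quartiles of edgeR's log2 fold change, red triangles the medians within each replicate pair, and blue squares the medians between replicates of one group. The treatment medians move from 0.05 at 1000 to under 2000 nt to -0.19 at 10000 to under 12000 nt, and from 12000 nt on the thapsigargin replicates differ from each other by nearly as much (-0.15 against -0.16 under 15000 nt).

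**Figure D4:**
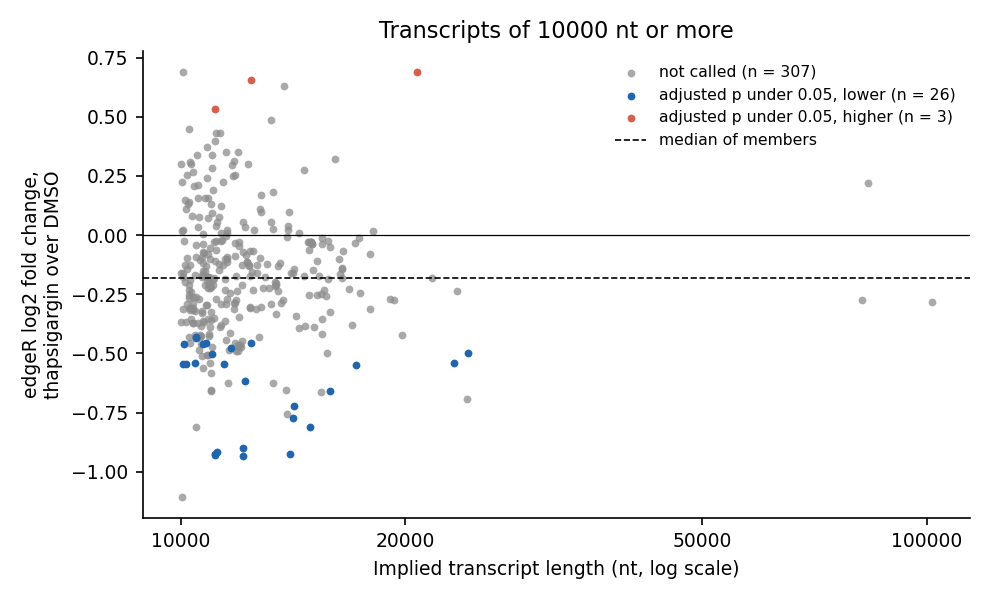
EdgeR log2 fold change of each of the 336 members against its implied length on a log axis, with the median of -0.18 as a dashed line. The 26 members called lower (blue) lie between 10078 and 24271 nt, the 3 called higher (red) between 11122 and 20771 nt, and no slope with length is visible.

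The fold changes were then set against count. When the members were divided by summed count into 4 equal bins, the median log2 fold change was -0.29, -0.13, -0.22 and -0.18 from the lowest bin to the highest, and 65, 61, 68 and 70 of 84 in each were below 0. Lower calls numbered 5, 2, 6 and 13, or 5.95%, 2.38%, 7.14% and 15.5% of each bin, against 3.67% of all tested transcripts. That share is not matched to the bins by count. The median mean count was 53.75 in the lowest bin and 1008.5 in the highest, against 97.5 over all tested transcripts. The median standard error went from 0.33 in the lowest bin to 0.13 in the highest. The 5 calls of the lowest bin lay in 2 groups of near-identical neighbouring rows. The members as a whole had a median standard error of 0.17, against 0.26 for all tested transcripts, and a median mean count of 291 against 97.5. With 50 counts or more on average, 8.55% of 304 members and 5.13% of all such transcripts were called lower. Of the 10 most counted members, which lay in 9 groups of near-identical neighbouring rows, 8 were below 0 (all tested, 49.8%). Of these 8, 4 were called lower, where 3.67% of all tested transcripts, at any count, were. Among these calls, uc007ivu.2 and uc011xuq.1 lay in the same group of near-identical rows and may not be separate observations. The highest fold change among the 10 was 0.02.

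The changes were modest in size. The 26 members that fell had log2 fold changes from -0.93 to -0.43 with a median of -0.55, and the 3 that rose had 0.53, 0.66 and 0.69. Beyond 1 on the log2 scale lay a single member, at 10040 nt, with -1.11, a summed count of 197 and an adjusted p of 0.0570 in edgeR's test. Over all tested transcripts 1.81% were below -1 and 3.11% above 1.

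Of the members with the smallest p-values on the lower side, uc007hjx.1 (14891 nt) had 1704 and 318 counts in the DMSO replicates and 1133 and 282 in the thapsigargin replicates. Scaled to library size these were 168, 143, 105 and 71.0 CPM, so both stressed libraries were below both resting ones. The means were 155 CPM ± 17.8 and 87.9 CPM ± 23.9 (SD, n = 2 each). EdgeR put the fold change at -0.81 on the log2 scale (SE 0.15), with an adjusted p of 0.000933. In CPM it ranked 34th and 51st of the 336 members in the DMSO libraries and 75th and 104th in the thapsigargin libraries. Without DMSO replicate 1 its adjusted p was 0.0501 in edgeR's test, just past the threshold.

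The other, uc029rkw.1 (12200 nt), had 4867 and 1060 counts with DMSO and 3330 and 1248 with thapsigargin, or 479, 476, 308 and 314 CPM. It was the second most counted member in both resting libraries, and its replicates were nearly equal in both groups. The means were 478 CPM ± 2.59 and 311 CPM ± 4.38 (SD, n = 2 each). EdgeR put the fold change at -0.62 (log2, SE 0.12), with an adjusted p of 0.00115. It was called in every fit listed with the processing, each with a library left out included.

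On the higher side, uc012bhe.2 (20771 nt) had 1596 and 302 counts with DMSO and 3045 and 757 with thapsigargin, or 157, 136, 282 and 191 CPM. The groups did not overlap, but the thapsigargin replicates differed more than the DMSO ones. The means were 146 CPM ± 15.3 and 236 CPM ± 64.4 (SD, n = 2 each). In edgeR's test the log2 difference was 0.69 (SE 0.15) and the adjusted p was 0.00386. The adjusted p was 0.259 without thapsigargin replicate 1 and 0.0627 without DMSO replicate 2.

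The second, uc007eao.2 (11122 nt), had 1153 and 273 counts with DMSO and 1954 and 628 with thapsigargin, or 114, 123, 181 and 158 CPM. Both stressed libraries were above both resting ones. The means were 118 CPM ± 6.33 and 169.5 CPM ± 16.0 (SD, n = 2 each). In edgeR's test the log2 difference was 0.53 (SE 0.13) and the adjusted p was 0.0113. The adjusted p was 0.110 without DMSO replicate 1 and 0.177 without thapsigargin replicate 1.

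The most counted member, uc008goj.2 (18100 nt), had 24414 and 4577 counts with DMSO and 26170 and 8312 with thapsigargin. At 2405, 2054, 2422 and 2094 CPM it was higher in replicate 1 than in replicate 2 of both groups, and the groups overlapped. In edgeR's test the log2 difference was 0.02 (SE 0.11) and the adjusted p was 0.955. Per length it stood at 316, 249, 280 and 227 TPM, the highest value of any member in each library. The longest member, uc008kfn.1 (101674 nt), had 49, 18, 46 and 23 counts, or 0.113, 0.174, 0.0875 and 0.112 TPM, among the lowest per length. Its values overlapped between groups in CPM (4.83, 8.08, 4.26 and 5.79), and the log2 difference of -0.28 (SE 0.41; adjusted p of 0.766 in edgeR's test) was not detectable at this depth.

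**Figure D5:**
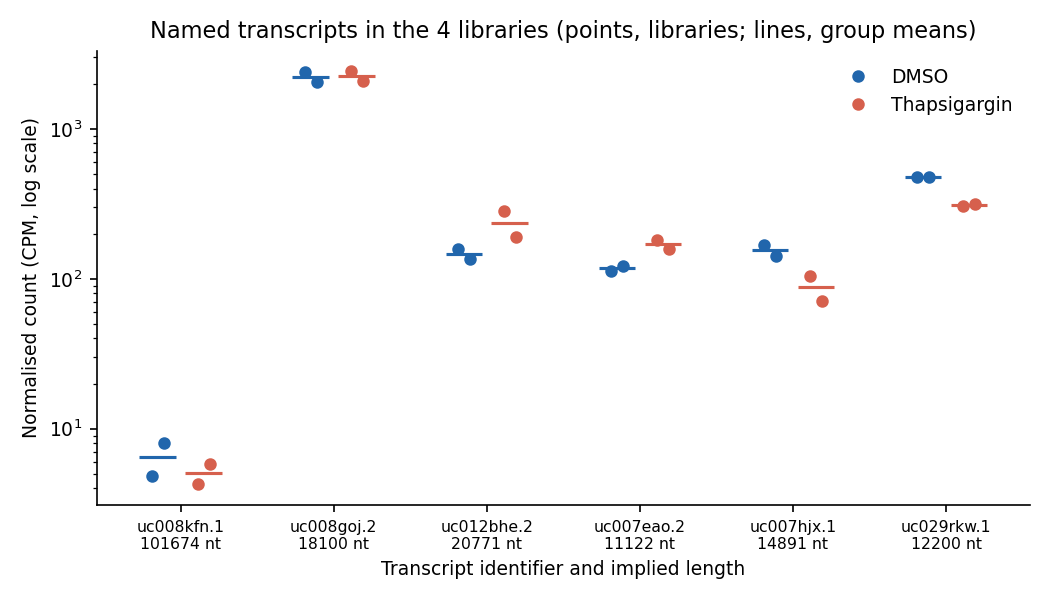
Normalised counts (CPM, log axis) of the 6 named members in each library, blue for DMSO and red for thapsigargin, points for libraries and lines for group means. The groups separate for uc012bhe.2 and uc007eao.2, higher with thapsigargin, and for uc007hjx.1 and uc029rkw.1, lower; they overlap for uc008kfn.1 and uc008goj.2.

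The members were not independent of each other. The 370 member rows lay in 222 runs of adjacent rows, of which 79 held 2 or more rows and the longest held 15. Merging adjacent rows whose counts were within 10% of each other in all 4 libraries left 255 groups. Of the 66 runs that held 2 or more members after identical rows were counted once, all members were below 0 in 53, all above 0 in 9, and of both signs in 4. Among the 156 runs of a single member, 112 were below 0. The 26 members that fell came from 19 runs and 20 groups of near-identical counts, and the 3 that rose from 3. Runs and groups join only directly adjacent rows. Members with similar counts and another row between them, such as the called ones of 24271 and 23252 nt, are therefore counted apart. The numbers of runs and groups may thus overstate how many members are independent. A run of 4 members of 11108 to 14013 nt, picked out here after its values were seen, held 4 of the lower calls, with log2 fold changes from -0.93 to -0.92 and adjusted p-values from 0.0232 to 0.0246 in edgeR's test, on summed counts of only 409 to 420 that were near-identical between its rows. The longest run showed no such fall, with fold changes from -0.06 to -0.03 for 9 members of 14829 to 15455 nt.

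Shorter transcripts listed beside the members were also compared, a step chosen after the data were examined. The tested rows under 10000 nt that directly preceded or followed a member row numbered 285, with a median length of 3261 nt, and only 6 of them had counts within 10% of the member's. Whether neighbouring rows belong to one gene is not given in the tables. For the 279 others the median log2 fold change was -0.10, and for the members beside them -0.18. A member row could enter with the row before it and the row after it, and repeated rows were kept. The -0.18 is therefore a median over pairs and not over distinct members. Taken pair by pair, the median difference of member minus neighbour was smaller, at -0.046. Of these neighbours, 170 (60.9%) were below 0, against 49.8% of all tested transcripts, and the member was the lower of the pair in 159 of 279. Of the 285 neighbours, 12 (4.21%) were called lower and 5 (1.75%) higher, against 3.67% and 3.74% of all tested transcripts. The fold changes of member and neighbour correlated with rho = 0.436 across these pairs.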

How the data were processed

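Per the file headers, the authors deposited 2 tables of the same transcripts, raw counts and TPM (length-corrected values that sum to the same total in each library), with 1 column per library and 0 columns without a sample. Reads were handled with cutadapt 4.1 and STAR 2.7.0d on GRCm38 or mm10, per the submitters' processing notes. The counting tool, annotation release and treatment of duplicates or of reads with several matches are not given in the sources used here. A read counted for several transcripts enters a library total more than once.

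The whole count table was fitted in edgeR 4.0.16 (R 4.3.3): filterByExpr (minimum count 10, minimum total 15), TMM scaling, quasi-likelihood F test with robust moderation, no block. P-values were adjusted by Benjamini-Hochberg over 29059 transcripts, and calls needed an adjusted p under 0.05. The biological coefficient of variation was 12.5%. The edgeR step was tested on simulated data. A floor of 3 counts was 0.287 to 1.25 CPM. A standard error is the log2 fold change over the root of its F statistic. Ratios within pairs come from log2 CPM (prior count 2). Alternatives were RLE scaling, library size alone, all rows with a count, rows averaging 50 counts or more, the replicate number as a block, DESeq2 1.42.0, limma 3.58.1 (voom, and log2(TPM + 0.5)), the 10 most abundant transcripts left out, each library left out, and other limits on length, summed count and repeated rows. Leaving out uc012ath.2 alone was added after seeing the data.

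The members, lists and limits were chosen with earlier results of these data known. Named members were the longest, the most counted, and the 2 of smallest p in each direction among called members whose groups did not overlap. The limit of 2 was set because identifiers carry no names, and gene and marker lists were not run for that reason.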

Additional observations from a re-analysis of the deposited data

How the results depend on the processing

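The median log2 fold change of the members stayed below 0, and below that of all tested transcripts, in each alternative fit. It was -0.11 with library-size scaling (all transcripts 0.07), -0.17 with all counted rows, -0.17 with rows averaging 50 counts or more, -0.20 with limma-voom, -0.32 with limma on TPM (all transcripts -0.15) and -0.23 for members of at least 15000 nt. With a library left out it ran from -0.25 to -0.11. The yardstick for these moves was the SD of the pair medians, 0.0085, which is narrow. The 29 calls became 14 with DESeq2 (12 lower, 3.57% of members against 1.85% of all tested transcripts), 1 with limma on TPM (lower, 0.298% against 1.49%), 72 at 8000 nt or more and 5 at 15000 nt or more, and 4 to 21 with a library left out. The sets at 8000 and 15000 nt differ from the members in how many transcripts they hold. At 8000 nt or more, 59 of 799 were called lower and 13 higher. At 15000 nt or more, 4 of 49 were called lower and 1 higher. Over all tested transcripts 3.67% were called lower and 3.74% higher. The cause of the changes with DESeq2 and with limma on TPM was not tested. With the replicate number as a block, 44 members were called (40 lower, 11.9% against 6.31%); same-numbered libraries deviated together only weakly (r = 0.0844 across tested transcripts), and the labels do not say what the number marks. All 29 calls kept their sign in every fit. The difference in the members' share of counts, -0.147 percentage points, was -0.379 without the 10 most abundant transcripts and -0.374 without uc012ath.2, and ran from -0.323 to 0.0299 with a library left out, the last without DMSO replicate 1. The 2 named uncalled members changed sign in 3 fits. With a library left out uc008kfn.1 ran from -0.74 to 0.0015, the last without DMSO replicate 2, and uc008goj.2 ran from -0.094 (without DMSO replicate 2; -0.091 without thapsigargin replicate 1) to 0.14; on TPM uc008goj.2 was at -0.15. Of the 4 named called members, 3 lost significance in 1 or more of 4 fits (limma on TPM, and without DMSO replicate 1, DMSO replicate 2 or thapsigargin replicate 1), and uc029rkw.1 in none of those run.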
